A study of Mus musculus with 69 samples.

Results

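The cell cycle and DNA replication genes are 48 named genes, chosen by symbol, of the 24537 genes listed in each RNA-seq table of mouse bone marrow-derived macrophages (BMDMs). They comprise 8 G1 cyclins and cyclin-dependent kinases (CDKs), 3 CDK inhibitors, 4 transcription factors, 12 origin licensing and replication fork genes, 4 genes of deoxynucleotide synthesis and 17 mitotic genes. A gene was tested in a table when it reached at least 1 TPM (transcript abundance scaled to gene length and library total) in at least 2 libraries. This left 47 members among the 11907 genes tested in the 5-strain table (Cenpf stayed below the limit), 46 members among 12088 genes in the time course table (not Ccnd2 and Cdc6), and 48 members among 12079 genes in the Egr2 table.

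All macrophages were grown from bone marrow for 7 days in medium with the growth factor M-CSF and were either left untreated (basal) or given 20 ng/ml of the cytokine interleukin-4 (IL-4). The 5-strain table held macrophages of 5 strains, the classical inbred C57BL/6J (C57), NOD/ShiLtJ (NOD) and BALB/cJ (BALB) and the wild-derived SPRET/EiJ (SPRET) and PWK/PhJ (PWK), basal and after 24 h of IL-4, with 3 libraries in each group except basal PWK, which had 2. The time course table held C57 and SPRET macrophages at basal, 1 h, 6 h and 24 h of IL-4, with 2 libraries each. The Egr2 table held the same times, again with 2 libraries each, for mice whose Egr2 alleles are flanked by loxP sites (Egr2 fl/fl, here Egr2WT) and for mice that also carry LyzM-Cre (LyzM-Cre Egr2 fl/fl, here Egr2MKO), so both groups carry the floxed alleles and the deletion is limited to cells that use the myeloid LyzM promoter. First-generation hybrids of C57 with SPRET and of C57 with NOD, 2 libraries each at basal and at 24 h, gave values for each parental allele. The paper describes its RNA-seq libraries as biological replicates. The labels number the replicates without saying whether they came from separate mice. The p-values therefore measure the spread between these libraries, which need not be the spread between mice.

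Cells enter the cell cycle when D-type cyclins with Cdk4 or Cdk6, and then cyclin E with Cdk2, inactivate the RB family and free E2F factors, which switch on genes for origin licensing, the replication fork and deoxynucleotide supply. A later wave of genes for the spindle, kinetochore and chromosome segregation follows in G2 and mitosis under FOXM1 and the MuvB complex, and CDK inhibitors such as p21 (Cdkn1a) and p27 (Cdkn1b) hold the cycle back. Macrophages grown in M-CSF still divide to some extent, and IL-4 is known both for turning on the alternative activation program and, in tissues, for macrophage proliferation. In bulk RNA, fewer dividing cells and less RNA per cell cannot be told apart.

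Both waves are marked by promoter motifs. A window of 300 bases (250 before and 50 after the transcription start; RefSeq, build GRCm38.p6, the same assembly as mm10) was matched by symbol for 39 of the 48 members and for 27025 genes in all. The motifs searched on both strands were the cell cycle homology region, CHR (TTTGAA or TTCGAA), the CCAAT box (CCAAT), and the E2F site (TTTGGCGC, TTTCGCGC, TTTCCCGC or TTTGCCGC). Of the 14 mitotic members with a window, 11 (78.6%) held a CHR and a CCAAT box and 1 (7.14%) held an E2F site. Of the 10 origin and fork members with a window, 7 (70%) held an E2F site and 3 (30%) held both CHR and CCAAT. Among all genes with a window, 8.61% held CHR and CCAAT together and 2.60% held an E2F site. A match is a string of letters and not a bound site. The sequences of 4 members are shown because they stand on opposite sides of the 24 h response in the SPRET time course described further on, where mitotic Ccnb2 and Cdc20 fell and fork genes Mcm5 and Mcm6 rose. Each is printed in the direction of transcription, with motif letters of either strand in capitals and overlapping matches merged.
Ccnb2, chr9:70421505-70421804, minus strand: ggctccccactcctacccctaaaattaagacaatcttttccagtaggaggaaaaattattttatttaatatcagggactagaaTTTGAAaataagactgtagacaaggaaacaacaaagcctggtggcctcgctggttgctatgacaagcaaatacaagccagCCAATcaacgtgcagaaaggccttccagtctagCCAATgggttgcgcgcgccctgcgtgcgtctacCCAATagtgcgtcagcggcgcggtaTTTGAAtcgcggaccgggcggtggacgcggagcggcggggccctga
Cdc20, chr4:118437294-118437593, minus strand: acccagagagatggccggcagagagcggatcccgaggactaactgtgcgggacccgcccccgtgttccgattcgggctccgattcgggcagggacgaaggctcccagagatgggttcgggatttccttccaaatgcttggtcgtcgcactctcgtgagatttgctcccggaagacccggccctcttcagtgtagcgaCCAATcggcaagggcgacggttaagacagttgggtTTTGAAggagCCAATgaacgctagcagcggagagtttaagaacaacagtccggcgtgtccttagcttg
Mcm5, chr8:75109259-75109558, plus strand: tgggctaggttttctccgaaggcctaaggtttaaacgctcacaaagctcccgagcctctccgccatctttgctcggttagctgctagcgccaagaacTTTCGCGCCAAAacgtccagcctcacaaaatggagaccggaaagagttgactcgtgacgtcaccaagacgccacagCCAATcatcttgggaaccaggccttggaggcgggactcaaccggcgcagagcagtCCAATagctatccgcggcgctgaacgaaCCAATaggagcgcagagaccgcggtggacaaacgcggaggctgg
Mcm6, chr1:128359656-128359955, minus strand: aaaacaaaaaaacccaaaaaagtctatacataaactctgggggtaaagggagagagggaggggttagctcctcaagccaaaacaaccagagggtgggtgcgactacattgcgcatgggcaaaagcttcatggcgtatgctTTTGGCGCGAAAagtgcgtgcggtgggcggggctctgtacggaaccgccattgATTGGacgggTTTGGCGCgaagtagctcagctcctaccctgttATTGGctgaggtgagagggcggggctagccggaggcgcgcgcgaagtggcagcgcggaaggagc

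The 29 libraries of the 5-strain table and the 16 of each other table held 4.69 to 32.9 Mtags (mega-tags, the reads that the authors counted), and the members summed to 440 to 697 TPM in the 5-strain table, 572 to 710 in the time course and 1179 to 1577 in the Egr2 table. The tables were normalised separately, so the gap between tables was not tested. Macrophage markers (9 genes, with Csf1r, Adgre1 and Cd68 among them) summed to between 4235 and 6752 TPM in each library, and each was detected in every library except Fcgr1, which was listed at 0 in 1 SPRET time course library. Summed markers of lymphocytes stayed at or below 6.6 TPM and those of erythroid cells at or below 0.9 TPM. Myeloid progenitor markers reached at most 19.2 TPM. The sum of the 9 granulocyte markers was lower after 24 h of IL-4 except in PWK and in the SPRET time course. These sums are given beside the results. Of the 9 markers, Retnlg was listed at 0 in every library, Ly6g never exceeded 0.276 TPM, and most of the sum came from S100a8, Mmp8 and, in PWK, S100a9. Of 5 fibroblast markers, the collagen genes Col1a1, Col1a2 and Col3a1 never exceeded 0.182 TPM, and most of the sum was Dcn. Ccnd3, Pcna, Tyms, Ccnb1 and Ccnb2 have listed pseudogene copies, so reads of these genes may be shared and their values are less certain.

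The Egr2 comparison asks whether EGR2, a transcription factor that IL-4 induces, is needed for late parts of the IL-4 response. Egr2 itself had 23.6 and 21.3 TPM in basal Egr2WT and 101 and 99.5 TPM at 24 h. In Egr2MKO it had 0.859 and 0.854 TPM at basal and 4.72 and 7.05 TPM at 24 h, so the deletion was visible in every library and transcript was still counted. The difference between genotypes was -3.66 ± 0.18, adjusted p = 1.44e-07 at basal (difference in log2(TPM + 1) ± standard error, SE, from limma, adjusted by Benjamini-Hochberg over all genes tested; the same scale is used for every difference given here, and it understates the change of low genes). "Passed" means an adjusted p under 0.05, and 2-fold calls also need a difference of more than 2-fold.

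The 24 h response of the cell cycle genes had opposite signs in the genotypes. In Egr2WT, 28 of 48 members fell and 3 rose, against 18.2% and 12% of all genes tested. In Egr2MKO, 31 rose and 1 fell, against 16.2% and 11.8%. The median member difference was -0.34 in Egr2WT and 0.42 in Egr2MKO, while all genes had medians of -0.05 and 0.05. In 18 members the level fell in Egr2WT and rose in Egr2MKO, 9 fell in Egr2WT without passing in Egr2MKO, 10 rose in Egr2MKO without passing in Egr2WT, 3 rose in both (Ccnd1, Cdk4 and Cdkn1a) and 1 fell in both (Ccnd3). These joint patterns were counted for the members only, so they have no background share. The difference between the responses passed for 34 members, each with the higher response in Egr2MKO, and for none in the other direction (background 8.78% and 3.85%). Of these, 7 differed by more than 2-fold (background 1.13%). The 34 comprised 15 of 17 mitotic genes, 9 of 12 origin and fork genes, 3 of 4 deoxynucleotide genes, 2 of 4 transcription factors, 3 of 8 G1 genes and 2 of 3 CDK inhibitors. The count past 2-fold was 2 under median-ratio scaling and quantile normalization, 3 and 11 with pseudocounts of 5 and 0.1 TPM, and 12 without replicate 2 of Egr2WT at 24 h. Fits that left out 1 library at a time gave 30 to 33 members with a passing response difference, none with the lower response in Egr2MKO.

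Mki67 (chromosome 7, 135689788 to 135716379, mm10, minus strand) encodes the proliferation marker Ki-67. Its levels in Egr2WT were 50.1 and 50.8 TPM at basal and 33.3 and 37.3 TPM at 24 h. In Egr2MKO they were 37.0 and 34.8 TPM and 53.8 and 55.1 TPM. The genotypes did not overlap at either time, and the order of the genotypes at 24 h was the reverse of that at basal. Such separation was common with 2 libraries per group. Of all genes tested, 29.8% lay wholly higher and 25.6% wholly lower in Egr2MKO at basal, and 48.1% and 21.9% at 24 h. The change was -0.50 ± 0.06, adjusted p = 3.99e-05 in Egr2WT and 0.59 ± 0.06, adjusted p = 1.01e-05 in Egr2MKO, a difference of 1.09 ± 0.08, adjusted p = 1.06e-05.

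Top2a, the topoisomerase that untangles replicated chromosomes, had 54.7 and 54.2 TPM in basal Egr2WT and 35.1 and 40.0 TPM at 24 h. It had 45.5 and 42.8 and then 61.8 and 62.0 TPM in Egr2MKO, and the responses differed by 1.00 ± 0.09, adjusted p = 1.74e-05. Birc5 (chromosome 11, 117849237 to 117855743, plus strand) encodes survivin, a subunit of the chromosomal passenger complex, and had the largest response difference among the members. It went from 36.0 and 35.9 to 20.5 and 22.8 TPM in Egr2WT and from 27.5 and 26.6 to 39.8 and 41.2 TPM in Egr2MKO, a difference of 1.27 ± 0.11, adjusted p = 1.68e-05. Ccnb2, a mitotic cyclin, followed with 25.9 and 25.5 TPM falling to 15.7 and 14.8 in Egr2WT and 14.3 and 17.4 TPM rising to 22.4 and 24.7 in Egr2MKO (1.26 ± 0.26, adjusted p = 0.00764 between responses). In all 4 genes the basal level was lower in Egr2MKO and the 24 h level was lower in Egr2WT. Kif11, the motor that separates spindle poles (1.03 ± 0.14), and Ccna2, the cyclin of S and G2 phase (1.01 ± 0.15), also differed by more than 2-fold. Cdk1, the main mitotic kinase, moved less, from 21.2 and 21.6 to 16.7 and 16.8 TPM in Egr2WT and from 17.4 and 17.3 to 21.9 and 21.6 TPM in Egr2MKO (0.64 ± 0.09, adjusted p = 0.000444). The mitotic genes whose response difference did not pass were Ccnb1 and Cdc20. Ccnb1 had 8.82 and 10.1 and then 8.72 and 8.48 TPM in Egr2WT and 7.79 and 7.16 and then 10.1 and 9.46 TPM in Egr2MKO, and rose in Egr2MKO alone by the separate tests (0.34 ± 0.12, adjusted p = 0.0464).

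Among the 12 origin and fork genes, 10 rose in Egr2MKO and 4 fell in Egr2WT. Mcm6, a subunit of the replicative helicase, had 57.9 and 56.4 TPM at basal and 44.2 and 50.4 TPM at 24 h in Egr2WT, against 50.2 and 50.3 and 77.1 and 83.3 TPM in Egr2MKO, with the responses 0.93 ± 0.10, adjusted p = 9.11e-05 apart. Mcm5, another subunit, fell from 19.3 and 19.2 to 13.4 and 16.7 TPM in Egr2WT and rose from 17.1 and 19.3 to 26.8 and 26.6 TPM in Egr2MKO (0.88 ± 0.13, adjusted p = 0.000964). Cdt1, which loads the helicase at origins, had 27.1 and 24.4 TPM at 24 h in Egr2WT and 52.4 and 51.0 TPM in Egr2MKO (0.98 ± 0.09, adjusted p = 6.85e-06). Its rise over basal passed in Egr2MKO (0.56 ± 0.09, adjusted p = 0.000759), where the basal libraries had 34.0 and 35.7 TPM. For the deoxynucleotide genes, Rrm2, the regulated subunit of ribonucleotide reductase, went from 40.7 and 40.4 to 27.6 and 34.8 TPM in Egr2WT and from 35.9 and 35.4 to 52.2 and 55.1 TPM in Egr2MKO (0.95 ± 0.12, adjusted p = 0.000227). Tk1, the thymidine salvage kinase, fell in Egr2WT (-0.70 ± 0.11), and the responses differed by 0.97 ± 0.15, adjusted p = 0.0013.

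**Figure D1:**
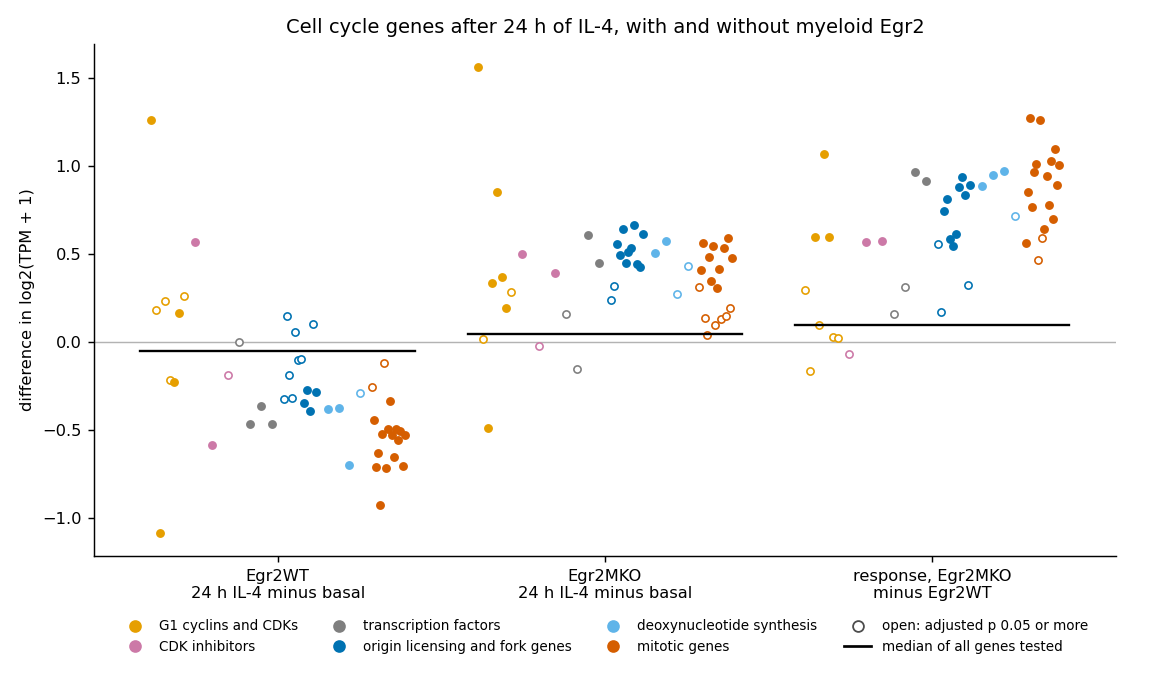
Differences in log2(TPM + 1) for each cell cycle gene at 24 h of IL-4, with 1 point per gene coloured by role (open where it did not pass, black lines at the median of all genes), for the Egr2WT response, the Egr2MKO response and the difference between them. Most points lie below 0 in Egr2WT (28 genes fell) and above 0 in Egr2MKO (31 rose).

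The D-type cyclins, which carry growth factor signals into G1, moved in the same direction in both genotypes where they passed. Ccnd1 (cyclin D1; chromosome 7, 144929931 to 144939925, minus strand) rose in both genotypes, from 11.6 and 9.62 to 27.5 and 25.9 TPM in Egr2WT (1.26 ± 0.16, adjusted p = 7.36e-05) and from 8.89 and 8.12 to 23.2 and 31.3 TPM in Egr2MKO (1.56 ± 0.16, adjusted p = 1.15e-05). Ccnd3 (cyclin D3; chromosome 17, 47505051 to 47599688, plus strand) fell in both, from 76.8 and 75.1 to 35.5 and 35.1 TPM (-1.08 ± 0.06, adjusted p = 6.43e-08) and from 74.3 and 84.4 to 56.4 and 56.0 TPM (-0.49 ± 0.06, adjusted p = 7.11e-05). Cyclins D1 and D3 thus moved in opposite directions, and the fall of Ccnd3 was smaller in Egr2MKO (0.60 ± 0.09, adjusted p = 0.000837). Ccnd2 stayed near the detection limit, at 1.41 and 1.55 TPM in Egr2WT and 1.09 and 0.795 TPM in Egr2MKO at 24 h, and did not pass. Ccne2 (cyclin E2) was the single member called more than 2-fold higher in Egr2MKO than in Egr2WT at 24 h, at 10.7 and 10.9 TPM against 4.50 and 4.99 TPM (1.04 ± 0.13, adjusted p = 6.24e-05), a difference that still passed but was under 2-fold with median-ratio scaling, quantile normalization or a pseudocount of 5 TPM.

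The CDK inhibitors did not move as a block. Cdkn1a (chromosome 17, 29093769 to 29100722, plus strand) rose in both genotypes, from 105 and 111 to 172 and 149 TPM in Egr2WT and from 70.2 and 78.2 to 104 and 107 TPM in Egr2MKO. Its responses differed by -0.07 ± 0.11, adjusted p = 0.759, which did not pass. It was lower in Egr2MKO both at basal (-0.53 ± 0.08, adjusted p = 0.000589) and at 24 h (-0.60 ± 0.08, adjusted p = 5.97e-05), and the groups did not overlap at either time. Of all genes tested, 25.6% and 21.9% lay wholly lower in Egr2MKO at these times. Cdkn2c (p18), an inhibitor of Cdk4 and Cdk6, had 19.8 and 19.7 TPM in Egr2WT and 31.2 and 31.3 TPM in Egr2MKO at 24 h (0.64 ± 0.07, adjusted p = 2.69e-05), while the basal libraries, with 21.9 and 23.3 TPM in Egr2WT and 22.7 and 24.5 TPM in Egr2MKO, overlapped. Cdkn1b fell in Egr2WT (-0.59 ± 0.08) and had 35.3 and 35.4 TPM at basal and 34.9 and 34.8 TPM at 24 h in Egr2MKO.

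At basal, 16 members were lower in Egr2MKO than in Egr2WT and none was higher, against 5.56% and 5.95% of all genes tested. Of these, 13 were mitotic genes, with Ccnb2 (-0.67 ± 0.19), Cdc20, the activator of the anaphase-promoting complex (-0.59 ± 0.13), and the mitotic kinase Plk1 (-0.59 ± 0.12) leading, and the other 3 were Cdkn1a, Foxm1 and Rrm1. None of the 12 origin and fork genes passed. At 24 h, 31 members were higher in Egr2MKO and 1, Cdkn1a, was lower, against 25.9% and 11.5%. The fit on the compared groups alone called 10 members at basal instead of 16.

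Early changes were few. At 1 h, Cdkn1a passed in Egr2WT (0.33 ± 0.08, adjusted p = 0.0343), the only member to rise (background 2.34%), and none fell (background 0.894%). It did not pass there without the filter on low values, under median-ratio scaling, in the fit on the compared groups alone or in any fit that left out 1 library, and quantile normalization gave 1 rise and 1 fall. In Egr2MKO at 1 h, Cdkn1a (0.67 ± 0.08, adjusted p = 0.000132) and Mki67 (0.29 ± 0.06, adjusted p = 0.0156) rose and Cdt1 (-0.42 ± 0.09) and Cdkn1b (-0.36 ± 0.08) fell, 2 in each direction (background 2.93% and 1.2%). At 6 h, 6 members rose and 3 fell in Egr2WT (background 16.2% and 9.21%), which became 5 and 5 under median-ratio scaling and 4 and 6 under quantile normalization. In Egr2MKO 14 rose and 3 fell at 6 h (background 19.2% and 10.5%), which became 8 and 4 and 6 and 4. Both genotypes had higher Ccnd1, Cdkn1a, Mcm2, Ccne1 and Uhrf1 and lower Ccnd3, Cdkn1b and E2f2 at 6 h. At 6 h Mki67 had 53.03 and 55.61 TPM in Egr2WT and 51.7 and 54.3 TPM in Egr2MKO, and these libraries overlapped.

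**Figure D2:**
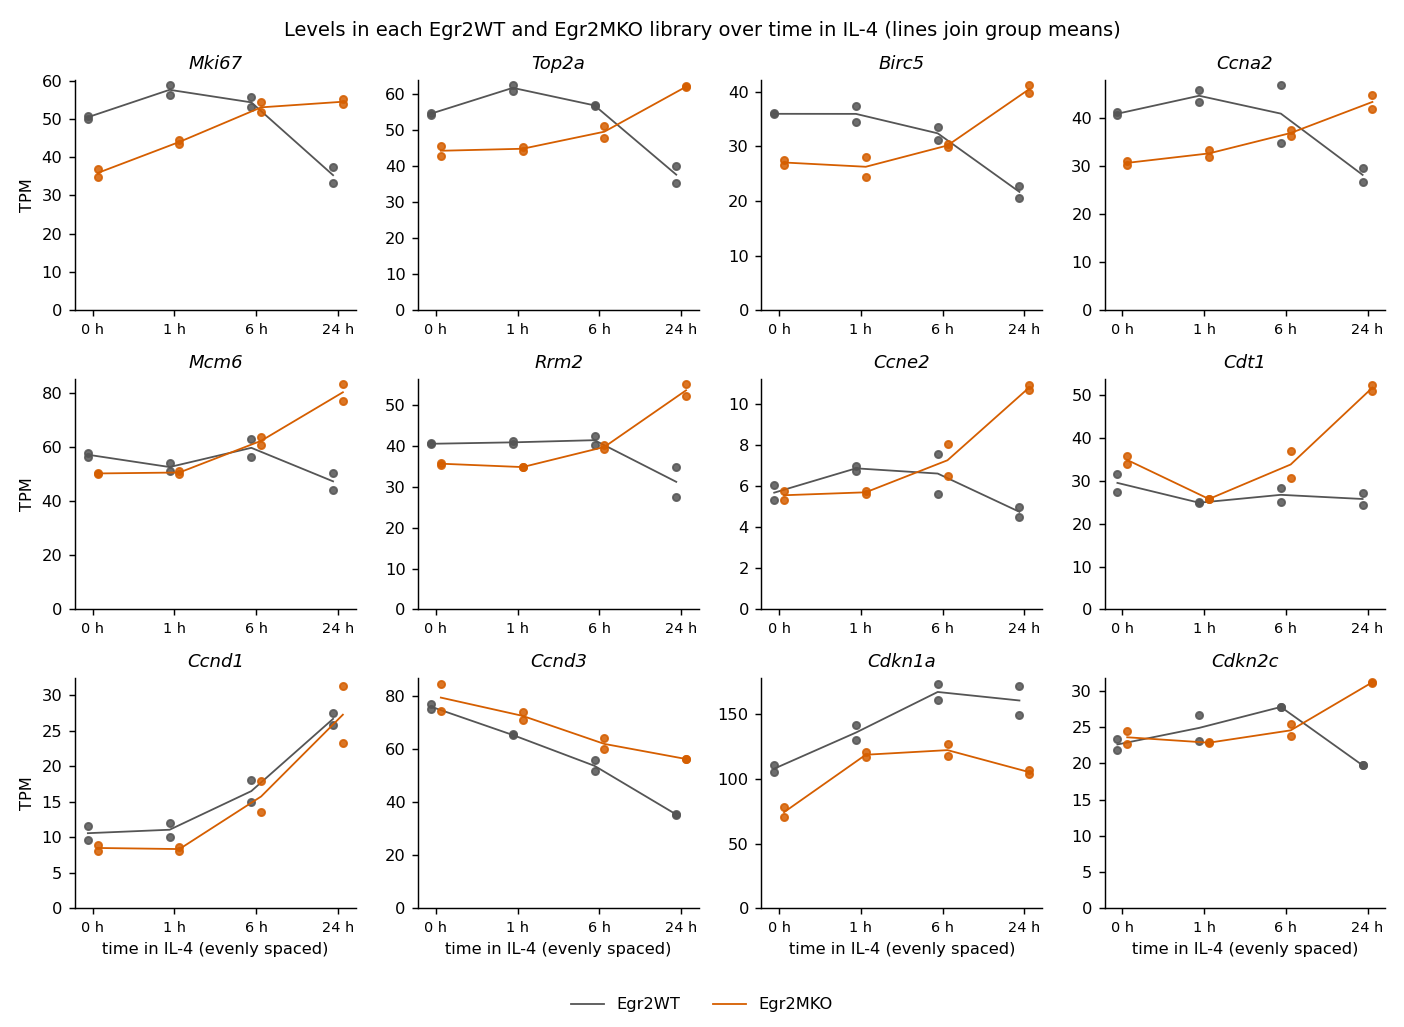
TPM of 12 cell cycle genes in each Egr2WT (grey) and Egr2MKO (orange) library against time in IL-4, with the times evenly spaced and lines through the means of 2 libraries. Mki67, Top2a, Birc5 and Ccna2 start lower in Egr2MKO and end higher, Ccnd1 rises in both, and Cdkn1a is lower in Egr2MKO at basal and at 24 h.

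The granulocyte markers summed to 188.1 to 202.5 TPM in basal Egr2WT and 116.8 to 120.4 TPM at 24 h, and to 163.3 to 166.1 TPM and 51.8 to 54.0 TPM in Egr2MKO. Progenitor markers summed to 15.3 to 16.0 TPM in basal Egr2WT and 8.2 to 10.6 TPM in basal Egr2MKO, and to 5.8 to 6.8 and 5.0 to 8.5 TPM at 24 h. Their part in the member differences was not tested.

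The other genes of these pathways were examined in lists that do not overlap with the members. In the Egr2 response difference, 44 of 57 other mitotic genes had the higher response in Egr2MKO and none the lower, as did 20 against 1 of 42 other replication genes. Pbk, a mitotic kinase, had a difference of 1.45 ± 0.14 (adjusted p = 5.77e-05). Of 22 RB, DREAM and other regulators, 4 passed higher and 1 lower, and of 14 p53 target genes, none passed higher and 1 lower. Over all genes tested, 8.78% passed higher and 3.85% lower, so the single genes passing lower lay near that share. The regulator Cdkn1c (p57) was lower in Egr2MKO at basal (-1.39 ± 0.05, adjusted p = 6.67e-09) and at 24 h (-1.86 ± 0.05, adjusted p = 2.15e-10), as was the p53 target Phlda3 (-1.54 ± 0.15, adjusted p = 3.36e-05, and -1.83 ± 0.15, adjusted p = 1.48e-06).

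The strain comparisons ask how natural genetic variation changes the macrophage response to IL-4. The basal levels of the members already differed widely. SPRET had 28 members higher and 10 lower than C57 (background 35.5% and 32.9%), with 15 and 4 by more than 2-fold (background 8.58% and 9.52%). Its 4 deoxynucleotide genes and 12 of 16 mitotic genes were higher, 1 mitotic gene (Bub1) was lower, and its 3 CDK inhibitors were lower, although Bub1 (0.91 ± 0.15) and Cdkn1b (0.25 ± 0.10) were higher than in C57 in the time course libraries. NOD had 6 members higher and 33 lower (background 20.1% and 54.1%), with 1 and 18 by more than 2-fold (background 5.15% and 11.7%). PWK had 17 higher and 9 lower (background 19.7% and 41.5%), with 4 and 2 by more than 2-fold (background 4.49% and 8.81%). BALB had 15 higher and 6 lower (background 24.8% and 18.4%). The median over members was 0.32 for SPRET, -0.70 for NOD and 0.17 for both PWK and BALB, while that over all genes was 0.02, -0.30, -0.16 and 0.04. Under median-ratio scaling, which brings the median of all genes to about 0, the counts became 27 and 6 in PWK (26 and 6 under quantile normalization) and 9 and 27 in NOD. The 2-fold calls in NOD, 19 in both directions together, were 10 under median-ratio scaling, 9 under quantile normalization and 4 with a pseudocount of 5 TPM. Those in PWK, 6 together, were 10 under quantile normalization and 2 and 13 with pseudocounts of 5 and 0.1 TPM, and those in SPRET, 19 together, were 8 with 5 TPM.

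In the 5-strain libraries, Cdkn1a had the largest basal difference in SPRET. Its basal levels were 190.0, 206 and 185 TPM in C57 and 23.0, 22.8 and 24.3 TPM in SPRET, and the other strains lay between them. BALB had 133, 137 and 139 TPM, NOD had 152, 167 and 163 TPM and PWK had 98.2 and 104 TPM. SPRET lay below every other strain without overlap, -3.00 ± 0.04, adjusted p = 2.95e-26 from C57. In the basal time course libraries Cdkn1a was also lower in SPRET than in C57, but by less than 2-fold. The NOD difference in Cdkn1a (-0.26 ± 0.04) turned to 0.13 under median-ratio scaling. Tk1 (chromosome 11, 117815519 to 117826014, minus strand) went the other way, with 23.6, 20.4 and 20.9 TPM in SPRET against 2.25, 4.27 and 1.99 TPM in C57 (2.60 ± 0.15, adjusted p = 4.87e-14), 6.27 and 6.23 TPM in PWK and 0.319, 0.508 and 0.543 TPM in NOD. Mcm7, a helicase subunit, had 18.8, 18.2 and 18.9 TPM in SPRET and 5.17, 3.86 and 4.80 TPM in C57 (1.81 ± 0.10, adjusted p = 1.84e-14). Cdk6 had 1.90, 2.03 and 2.00 TPM in SPRET and 6.82, 8.13 and 6.20 TPM in C57 (-1.43 ± 0.09, adjusted p = 3.08e-13).

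E2f2, an activating E2F factor (chromosome 4, 136172274 to 136196056, plus strand), was, relative to C57, the lowest member in NOD, BALB and PWK. Its basal levels were 13.3, 13.7 and 13.0 TPM in C57, 2.36, 2.56 and 2.48 in BALB, 0.732, 0.411 and 0.899 in NOD, 5.02 and 4.79 in PWK and 11.5, 10.3 and 9.77 in SPRET, and the 5 strains did not overlap. The differences from C57 were -2.05 ± 0.09, adjusted p = 5.88e-16 in BALB, -3.10 ± 0.09, adjusted p = 4e-20 in NOD and -1.28 ± 0.10, adjusted p = 2.54e-11 in PWK. Pcna, the sliding clamp of DNA polymerases, had 55.4, 52.0 and 57.4 TPM in C57, 17.4, 19.4 and 15.3 in NOD (-1.61 ± 0.08, adjusted p = 4.68e-15), 27.8 and 24.9 in PWK (-1.03 ± 0.09, adjusted p = 3.67e-10) and 20.7, 20.1 and 18.5 in SPRET. Cdt1 (chromosome 8, 122568015 to 122573130, plus strand) was high in NOD and PWK, with 48.6, 47.6 and 46.7 TPM in NOD (1.61 ± 0.08) and 39.0 and 43.6 TPM in PWK (1.41 ± 0.09) against 16.8, 14.5 and 13.6 TPM in C57. PWK stood out for Ccnd1, with 22.3 and 18.1 TPM against 2.58, 1.98 and 2.16 TPM in C57 (2.71 ± 0.10, adjusted p = 2.16e-17), and it was the only strain in which Ccnd2 exceeded 1 TPM, at 1.77 and 1.52 TPM. Mki67 was lowest in PWK, at 2.59 and 2.47 TPM, then C57 at 3.01, 4.11 and 3.03, NOD at 5.76, 5.78 and 5.62, SPRET at 7.03, 6.83 and 7.14 and BALB at 7.67, 6.01 and 7.16 TPM, and the last pair overlapped. Other landmark genes did not follow the order of Mki67. Top2a had 4.29, 5.09 and 4.16 TPM in C57, 6.57, 5.49 and 5.84 in BALB, 2.33, 2.02 and 1.97 in NOD, 5.28 and 5.08 in PWK and 13.1, 11.6 and 11.8 in SPRET. It was higher in SPRET (1.26 ± 0.09, adjusted p = 7.06e-12) and BALB and lower in NOD. Rrm2 had 3.08, 3.15 and 2.86 TPM in C57, 3.65, 3.66 and 3.88 in BALB, 0.537, 0.545 and 0.571 in NOD, 3.15 and 2.46 in PWK and 9.62, 10.1 and 9.33 in SPRET, with SPRET above and NOD below every other strain. Mcm5 had 5.26, 6.12 and 5.28 TPM in BALB, 0.748, 0.870 and 1.00 in NOD and 8.32 and 6.83 in PWK, and of all strains SPRET (12.5, 13.4 and 13.8 TPM) was highest and NOD lowest. Cdk1 had 4.53, 5.56 and 5.10 TPM in C57, 6.25, 6.04 and 7.41 in BALB, 2.53, 2.96 and 2.90 in NOD, 6.23 and 6.07 in PWK and 5.45, 5.02 and 4.79 in SPRET, where it did not pass against C57. Ccnb1 had 1.37, 1.95 and 1.52 TPM in C57, 3.77, 2.55 and 2.78 in BALB, 2.76, 2.93 and 3.04 in NOD, 2.41 and 2.92 in PWK and 1.80, 2.21 and 1.57 in SPRET, and was higher than in C57 in BALB, NOD and PWK. Cdkn2c had 14.4, 12.4 and 14.1 TPM in C57, 15.0, 15.4 and 14.3 in BALB, 5.29, 8.12 and 8.24 in NOD, 12.1 and 10.4 in PWK and 10.1, 9.14 and 8.82 in SPRET, and was lower in NOD and SPRET. In NOD, Mki67 (0.63 ± 0.09) and Ccnb1 (0.59 ± 0.13) were higher than in C57 while 12 of the 16 mitotic genes tested were lower.

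**Figure D3:**
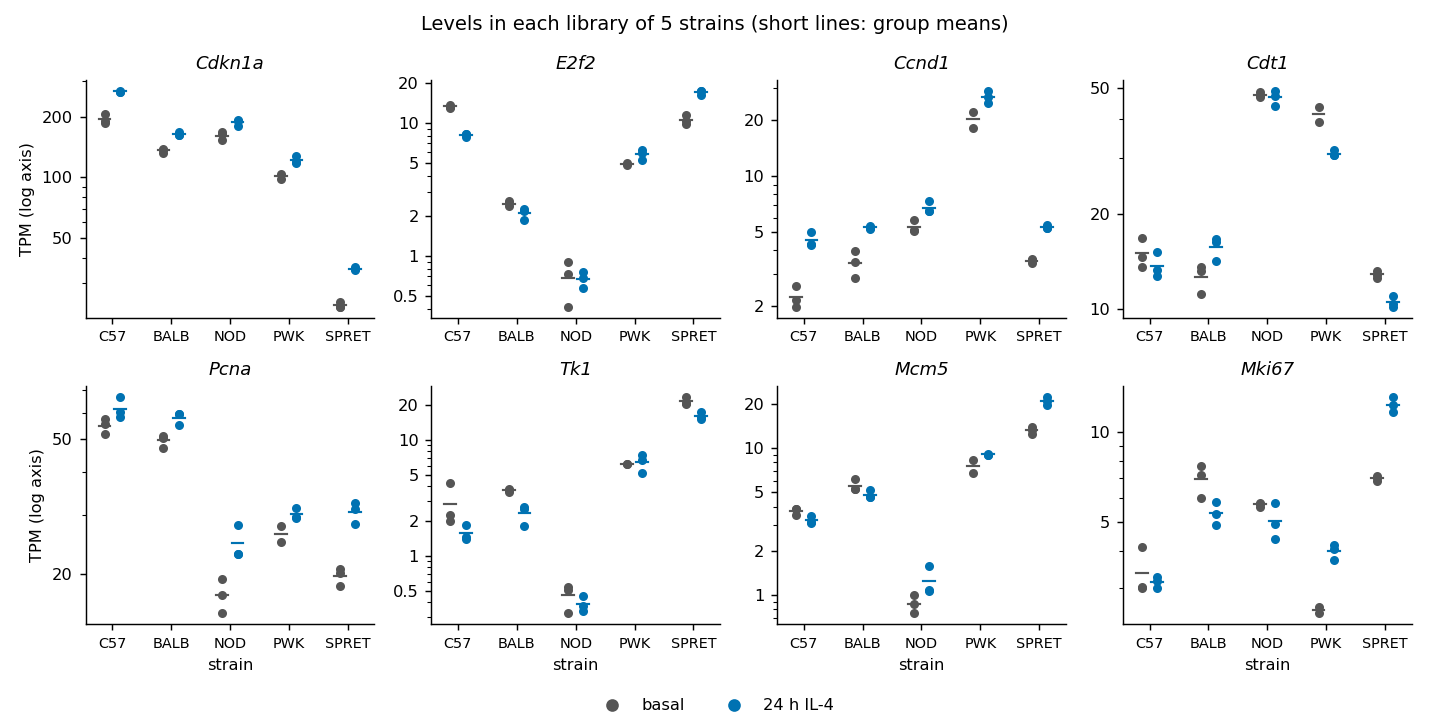
TPM on a log axis of 8 cell cycle genes in each library of the 5 strains, basal in grey and 24 h of IL-4 in blue, with short lines at group means. Cdkn1a is lowest in SPRET, E2f2 lowest in NOD, Ccnd1 highest in PWK, and Tk1 and Mcm5 highest in SPRET.

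After 24 h of IL-4, no member passed a 2-fold change in any of the 5 strains. The share of all genes past 2-fold is not given here. The direction of the smaller changes differed between strains, and so did that of all genes tested. In C57, 4 members rose and 13 fell (background 15% and 20.5%), and in BALB 5 rose and 11 fell (background 9.45% and 24.8%). In PWK, 11 rose and 3 fell (background 18.6% and 6.08%). In SPRET, 24 rose and 4 fell (background 31.4% and 12.9%). In NOD, 10 rose and none fell (background 28.2% and 6.07%), but under median-ratio scaling 2 rose and 8 fell, and under quantile normalization 3 rose and 8 fell, so the direction in NOD depends on the scaling. Both scalings also gave 5 and 5 in BALB and 6 and 3 in PWK, and median-ratio scaling gave 19 and 5 in SPRET. The member medians were -0.12, -0.17, 0.10, 0.19 and 0.30 in C57, BALB, NOD, PWK and SPRET, and the medians of all genes were -0.04, -0.11, 0.12, 0.08 and 0.11. Both medians thus had the same sign in each strain. The member median minus that of all genes was -0.08, -0.06, -0.02, 0.10 and 0.19 in the same order, and was largest in SPRET. Of the 47 members tested, 12 (25.5%) passed in no strain, against 21.7% of all genes tested, and 11 (23.4%) rose in at least 1 strain and fell in another, against 15.1%. The fit on the compared groups alone passed 10 members in C57 in place of 17, 3 in NOD in place of 10 and 8 in PWK in place of 14.

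A few G1 regulators moved the same way across strains. Of all genes tested, 2.77% rose in each strain, 3.43% rose in 4 and 1.95% fell in 4. Ccnd1 and Cdkn1a rose in each of the 5 strains, although under median-ratio scaling neither passed in NOD, and Cdk4 rose in 4 (not NOD). Ccnd1 went from 2.58, 1.98 and 2.16 to 4.32, 5.02 and 4.29 TPM in C57 (0.78 ± 0.09, adjusted p = 1.89e-07), and its rise was smallest in NOD, from 5.12, 5.08 and 5.86 to 6.51, 6.49 and 7.35 TPM (0.29 ± 0.09, adjusted p = 0.0161). Cdkn1a went from 190.0, 206 and 185 to 265, 265 and 269 TPM in C57 and from 23.0, 22.8 and 24.3 to 34.8, 35.9 and 35.2 TPM in SPRET, so its level in SPRET after IL-4 was still below the basal level of each other strain. Ccnd3 fell in 4 strains, from 48.9, 50.1 and 49.2 to 26.7, 27.3 and 25.6 TPM in C57 (-0.87 ± 0.05, adjusted p = 1.45e-13). In NOD, where it did not pass, Ccnd3 had 22.8, 23.1 and 23.7 TPM at basal and 20.3, 21.5 and 22.4 TPM at 24 h. Mcm2, a helicase subunit, rose in 4 strains (not BALB). Cdkn1b fell in 4 strains and rose in NOD, but its rise in NOD did not pass under either scaling.

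In SPRET, 10 of 12 origin and fork genes rose and 1 (Cdt1) fell, with a list median of 0.62, while 3 of 16 mitotic genes rose, with a median of 0.03. Mcm2 had 5.89, 7.15 and 6.25 TPM at basal and 13.2, 12.9 and 13.4 TPM at 24 h (0.93 ± 0.10, adjusted p = 1.3e-08). Mcm5 went from 12.5, 13.4 and 13.8 to 19.8, 22.3 and 21.1 TPM (0.63 ± 0.09, adjusted p = 1.73e-06), and Rrm2 from 9.62, 10.1 and 9.33 to 14.8, 17.0 and 16.9 TPM (0.68 ± 0.12, adjusted p = 3.08e-05). In each of these genes the basal and treated libraries were separate, as for the 44.1% of all genes tested that lay wholly higher after treatment. Cdc45, the helicase partner, and Uhrf1, which guides maintenance methylation of DNA, both rose (0.72 ± 0.15 and 0.72 ± 0.14). Mki67 rose from 7.03, 6.83 and 7.14 to 11.7, 13.1 and 12.3 TPM (0.74 ± 0.09, adjusted p = 5.54e-07), and Ccnb1 rose as well (0.35 ± 0.13, adjusted p = 0.0275). Neither rise was seen at 24 h in the separate SPRET time course, where no mitotic gene rose. In the 5-strain libraries Top2a did not pass, with 13.1, 11.6 and 11.8 TPM at basal and 11.7, 12.6 and 12.6 TPM at 24 h, and Tk1 fell (-0.39 ± 0.15, adjusted p = 0.034). None of Mki67, Mcm5 and Rrm2 passed in C57. Mki67 had 3.01, 4.11 and 3.03 TPM there at basal and 3.26, 3.18 and 3.00 TPM at 24 h, and Mcm5 had 3.88, 3.88 and 3.52 TPM and 3.46, 3.11 and 3.14 TPM. In C57 Aurkb, a passenger complex kinase, fell from 5.17, 5.29 and 5.68 to 3.60, 3.55 and 1.73 TPM (-0.73 ± 0.13, adjusted p = 5.23e-05), and Bub1, a checkpoint kinase, from 2.49, 2.98 and 2.77 to 1.74, 1.46 and 1.34 TPM (-0.58 ± 0.10, adjusted p = 3.12e-05).

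The named changes in PWK, BALB and NOD were smaller than 2-fold. In PWK, Mki67 rose from 2.59 and 2.47 to 4.07, 4.18 and 3.74 TPM (0.50 ± 0.11, adjusted p = 0.000871), Birc5 from 8.37 and 9.59 to 10.4, 13.1 and 16.4 TPM (0.50 ± 0.13, adjusted p = 0.0073) and Mcm6 from 13.0 and 11.3 to 17.5, 18.4 and 18.2 TPM (0.53 ± 0.10, adjusted p = 0.000226), while Cdt1 fell (-0.40 ± 0.09, adjusted p = 0.00126). In BALB, Mki67 fell from 7.67, 6.01 and 7.16 to 5.84, 4.88 and 5.32 TPM (-0.32 ± 0.09, adjusted p = 0.0103), and Top2a, Birc5, Bub1 and Cenpe, the motor that carries chromosomes to the spindle equator, fell by similar amounts (-0.32 to -0.34). Under both median-ratio scaling and quantile normalization the falls of Mki67, Birc5 and Bub1 no longer passed and those of Top2a and Cenpe did, and the rise of Birc5 in PWK did not pass under quantile normalization. The largest BALB fall was that of Tk1, from 3.69, 3.56 and 3.79 to 2.64, 1.82 and 2.56 TPM (-0.50 ± 0.15, adjusted p = 0.0121). In NOD, Mcm6 (0.48 ± 0.09, adjusted p = 0.000206) and Pcna (0.48 ± 0.08, adjusted p = 6.09e-05) had the largest rises among members that passed, which for Pcna was from 17.4, 19.4 and 15.3 to 28.0, 23.0 and 23.0 TPM, and both genes also passed under the other scalings.

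The response differed from that of C57 for 22 members in SPRET, each with the higher response in SPRET (background 24.4% higher and 8.94% lower). In PWK, 12 members had the higher and 2 the lower response (background 16.8% and 5.58%), in NOD 14 and 4 (background 26% and 7.32%), and in BALB 3 and 3 (background 5.43% and 10.4%). These comparisons share the C57 libraries. Median-ratio scaling gave 13 and 2 in SPRET, 9 and 3 in PWK, 7 and 5 in NOD and 4 and 1 in BALB (4 and 2 under quantile normalization). The 2 members past 2-fold in SPRET (background 1.83%) were E2f2 (1.31 ± 0.12, adjusted p = 8.43e-09) and Uhrf1 (1.12 ± 0.19, adjusted p = 7.73e-05). E2f2 went from 11.5, 10.3 and 9.77 to 16.3, 17.4 and 17.5 TPM in SPRET and from 13.3, 13.7 and 13.0 to 8.20, 7.81 and 8.25 TPM in C57. Uhrf1 went from 4.34, 4.25 and 3.94 to 6.93, 8.11 and 7.62 TPM in SPRET and from 2.13, 2.22 and 1.82 to 1.71, 1.16 and 1.15 TPM in C57. Both genes rose in SPRET and fell in C57, with separate basal and treated libraries. Of all genes tested, 44.1% lay wholly higher after treatment in SPRET and 23.0% wholly lower in C57. With a pseudocount of 5 TPM neither was past 2-fold, and under the other scalings E2f2 was and Uhrf1 was not. The response difference of E2f2 was 0.49 ± 0.12 in BALB, 0.66 ± 0.12 in NOD and 0.86 ± 0.13 in PWK.

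**Figure D4:**
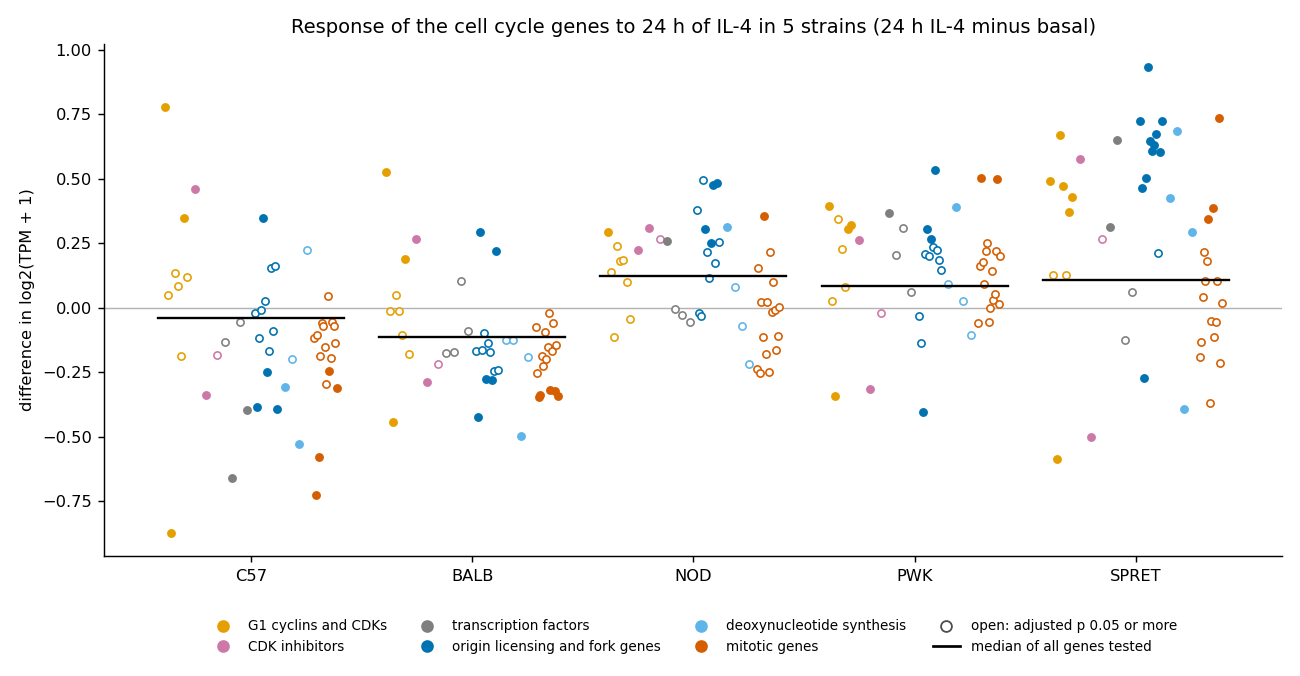
Differences in log2(TPM + 1) between 24 h of IL-4 and basal for each tested cell cycle gene in the 5 strains, with 1 point per gene coloured by role (open where it did not pass, black lines at the median of all genes). Points are spread around 0 in C57 and BALB (medians -0.12 and -0.17) and shifted upward in SPRET (median 0.30), where the origin and fork genes have a median of 0.62.

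Granulocyte markers summed to 167.2 to 188.4 TPM in basal C57 and 59.6 to 78.4 TPM at 24 h, to 86.1 to 89.7 and 36.9 to 41.0 TPM in BALB, to 45.4 to 58.0 and 22.1 to 24.3 TPM in NOD, to 555.2 to 561.1 and 553.0 to 603.7 TPM in PWK, and to 343.6 to 403.9 and 249.2 to 273.8 TPM in SPRET. Fibroblast markers summed to 202.1 to 210.2 TPM in basal PWK and 105.0 to 111.6 TPM at 24 h, and to at most 16.7 TPM in the other strains. Their part in the strain results was not tested.

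Of 39 other replication genes tested, 28 rose and 1 fell in SPRET at 24 h, against 2 and 8 in C57. Of 52 other mitotic genes, 13 rose and 2 fell in SPRET, and 3 rose and 13 fell in C57. Over all genes tested, 31.4% rose and 12.9% fell in SPRET and 15% and 20.5% in C57, so the share of mitotic genes that rose in SPRET was below that of all genes. Dut, which converts dUTP to dUMP and so keeps uracil out of DNA, rose in C57 by 4.28 ± 0.08 (adjusted p = 1.68e-22) and in SPRET by 2.01 ± 0.08 (adjusted p = 1.61e-16), a larger change than in any member. It rose in the time course as well (3.61 ± 0.13, adjusted p = 8.53e-10 in C57, and 2.82 ± 0.13, adjusted p = 7.05e-09 in SPRET) and in both Egr2 genotypes (3.16 ± 0.10, adjusted p = 4.08e-10 in Egr2WT, and 2.56 ± 0.10, adjusted p = 1.36e-09 in Egr2MKO). At basal, 9 of 14 p53 target genes were lower in SPRET than in C57 and 4 were higher (background 32.9% and 35.5%), with Phlda3 lowest (-4.10 ± 0.11, adjusted p = 2.63e-21).

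The time course gave a second set of C57 and SPRET libraries. In C57, 2 members rose and 2 fell at 1 h (background 2.73% and 1.22%; 1 and 3 under quantile normalization), 4 rose and 3 fell at 6 h (background 10.9% and 9.55%), and 4 rose and 26 fell at 24 h (background 18.2% and 21.1%). The 24 h median was -0.40 for members and -0.02 for all genes. Only Ccnd3, E2f2, Bub1b and Aurkb fell by more than 2-fold (background 2.91%), a count of 4 that was 8 and 1 with pseudocounts of 0.1 and 5 TPM and 2 without replicate 2 at 24 h. Ccnd3 went from 41.0 and 45.9 TPM at basal to 31.9 and 31.6 at 6 h and 12.0 and 12.5 at 24 h (-1.75 ± 0.08, adjusted p = 7.01e-09), and E2f2 from 12.3 and 12.8 to 4.33 and 4.27 TPM (-1.35 ± 0.08, adjusted p = 8.01e-08). Mki67 was first higher and then lower, with 4.83 and 5.29 TPM at basal, 7.92 and 7.82 at 1 h (0.55 ± 0.08, adjusted p = 0.00116), 7.16 and 7.11 at 6 h and 2.54 and 2.55 at 24 h (-0.77 ± 0.08, adjusted p = 9.24e-06). Ccnd1 was highest at 6 h, with 17.8 and 17.7 TPM against 8.81 and 9.37 TPM at basal (0.89 ± 0.12, adjusted p = 0.000133), and had 8.54 and 9.01 TPM at 24 h.

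In SPRET, 2 members rose and 5 fell at 1 h (background 4.83% and 3.92%), 7 rose and 8 fell at 6 h (background 16.9% and 13.7%), and 11 rose and 13 fell at 24 h (background 14.8% and 21.8%). The 24 h median was -0.12 for members and -0.05 for all genes. It was 0.30 and 0.11 in the 5-strain libraries of SPRET, where 24 members rose and 4 fell, so the 2 sets differed in the balance of directions. Cdkn1a had the largest early rise, at 37.8 and 44.6 TPM basal, 181 and 168 at 1 h (2.06 ± 0.11, adjusted p = 5.66e-08), 184 and 173 at 6 h (2.10 ± 0.11, adjusted p = 1.99e-08) and 72.9 and 65.1 at 24 h, where it lay between the basal and 6 h libraries. In C57 it had 67.6 and 82.2 TPM at basal, 95.5 and 109 at 1 h, 124 and 139.7 at 6 h and 140.0 and 147 at 24 h. E2f8, a repressing E2F factor, fell in SPRET from 38.2 and 37.9 TPM to 14.4 and 13.1 at 1 h (-1.40 ± 0.09, adjusted p = 4.52e-07) and had 33.7 and 28.9 at 6 h. E2f2 did likewise, from 20.1 and 21.8 to 10.1 and 9.70 and then 17.6 and 19.3 TPM (-1.01 ± 0.08, adjusted p = 3.2e-06 at 1 h).

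At 24 h in SPRET, 7 of 11 origin and fork genes rose and 1 fell, while 9 of 17 mitotic genes fell and none rose. The list medians were 0.46 and -0.46. Ccnb2 went from 9.62 and 10.4 to 2.01 and 2.89 TPM (-1.69 ± 0.15, adjusted p = 1.71e-06) and Cdc20 from 5.39 and 4.24 to 1.44 and 1.39 TPM (-1.26 ± 0.16, adjusted p = 3.93e-05). Both promoters shown earlier hold CHR and CCAAT letters and no E2F site of the forms searched. Mcm6 rose from 7.34 and 9.91 to 14.2 and 17.0 TPM (0.80 ± 0.14, adjusted p = 0.000565) and Mcm5 from 7.70 and 8.89 to 10.7 and 13.0 TPM (0.46 ± 0.11, adjusted p = 0.00426), and both promoters hold E2F and CCAAT letters and no CHR. These 4 genes do not stand for all members. Of the 9 members with a window that rose in SPRET at 24 h, 4 held E2F letters (Mcm3, Mcm5, Mcm6 and Uhrf1), 1 (Mcm2) held CHR and CCAAT without E2F and 4, among them Pcna, held neither CHR nor E2F. Of the 12 with a window that fell, 7 held CHR and CCAAT, 1 (Cdt1) held E2F letters and 4 held neither CHR nor E2F. Pcna rose from 10.8 and 11.4 to 21.1 and 21.9 TPM (0.89 ± 0.06, adjusted p = 2.28e-07) but stayed below the C57 level of 74.5 and 74.6 TPM. Ccnd1 rose from 3.29 and 3.21 to 8.65 and 7.57 TPM (1.10 ± 0.12, adjusted p = 9.49e-06). Cdk1, Ccnb1 and Rrm2 did not pass in SPRET at 24 h. Rrm2 had 6.50 and 7.31 TPM at basal and 6.67 and 6.95 TPM at 24 h there, and in C57 it fell from 5.43 and 4.70 to 2.27 and 2.56 TPM (-0.83 ± 0.10, adjusted p = 4.24e-05). Top2a fell in both strains, from 5.68 and 5.87 to 2.71 and 3.42 TPM in C57 and from 11.2 and 13.3 to 6.51 and 9.46 TPM in SPRET.

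The SPRET response at 24 h was higher than that of C57 for 19 members and lower for 5 (background 12.8% and 16.1%), with 7 higher by more than 2-fold (background 3.09%) and 1, Ccnb2, lower, of which none remained past 2-fold with a pseudocount of 5 TPM. Uhrf1 led, from 1.49 and 2.03 to 3.41 and 3.44 TPM in SPRET and from 3.26 and 3.61 to 1.38 and 1.09 TPM in C57 (1.68 ± 0.20, adjusted p = 5.26e-05). Mcm6 followed (1.23 ± 0.19, adjusted p = 0.000475), with 24.5 and 24.3 TPM at basal and 19.5 and 16.2 TPM at 24 h in C57. Ccnb2 had the lowest SPRET response relative to C57 (-1.29 ± 0.21, adjusted p = 0.000542), where it had 1.44 and 1.14 TPM at basal and 0.609 and 0.865 TPM at 24 h. At basal, SPRET had 24 members higher and 12 lower (background 34.3% and 26.4%), with 11 and 5 by more than 2-fold (background 9.92% and 8.88%; 8 in all with a pseudocount of 5 TPM), and under median-ratio scaling 20 higher and 17 lower. Mitotic genes made up 14 of the 24, and none of the 17 tested was lower, whereas 2 of 11 origin and fork genes were higher and 7 lower. E2f8 had 38.2 and 37.9 TPM in SPRET against 3.50 and 4.12 TPM in C57 (3.02 ± 0.09, adjusted p = 4.45e-11), and Pcna 10.8 and 11.4 against 83.3 and 85.6 TPM (-2.82 ± 0.06, adjusted p = 3.12e-12). E2f1, an activating E2F factor, also was lower, at 4.96 and 5.87 TPM against 24.1 and 21.8 TPM (-1.90 ± 0.14), and Ccnb2 was higher (2.27 ± 0.15). Granulocyte markers summed to 331.8 to 375.9 TPM in basal C57 and 68.5 to 76.1 TPM in basal SPRET, and to 183.3 to 188.3 and 72.2 to 92.6 TPM at 24 h. Their part was not tested.

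**Figure D5:**
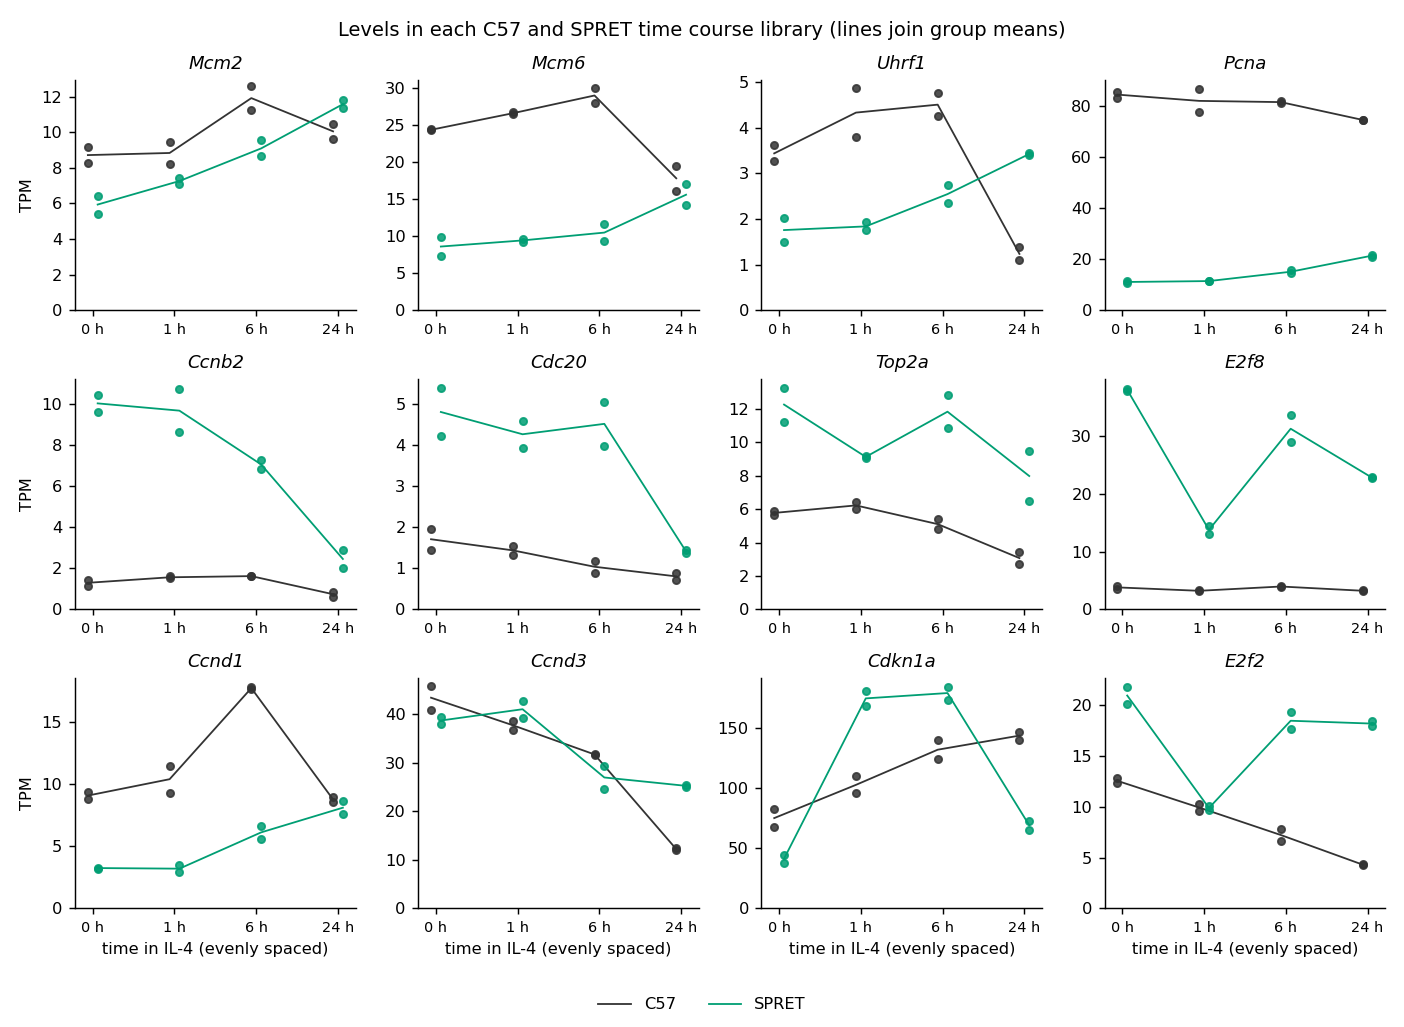
TPM of 12 cell cycle genes in each C57 (dark) and SPRET (green) time course library against time in IL-4, with the times evenly spaced and lines through the means of 2 libraries. In SPRET, Mcm2, Mcm6, Uhrf1 and Pcna end higher than they start and Ccnb2, Cdc20 and E2f8 end lower, while Cdkn1a is highest at 1 h and 6 h.

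Library sets that share no library could be set side by side for some questions. The 24 h response was measured in C57 in 2 tables and in Egr2WT in the third. Of 45 members tested in all 3 sets, 10 (22.2%, against 9.5% of all genes tested in these sets) fell in each (Ccnd3, Cdkn1b, E2f2, Foxm1, Uhrf1, Rrm1, Tk1, Aurkb, Bub1 and Top2a), 2 rose in each (Cdk4 and Cdkn1a; 4.44% against 6.7%), and none passed in opposite directions (background 0.512%). For the SPRET response, 11 members rose in both sets (Ccnd1, Cdk4, Ccne1, Cdkn1a, Mcm2 to Mcm6, Pcna and Uhrf1; 24.4% against 12.6% of all genes) and 3 fell in both (Ccnd3, Cdkn1b and Cdt1; 6.67% against 9.88%). For the response difference between SPRET and C57, 17 members (37.8%, against 7.9% of all genes) were higher in both sets, none was lower in both (background 4.81%) and none passed in opposite directions (background 2.04%). For the basal difference, 20 members (44.4%, against 23.6% of all genes) were higher and 5 (11.1%, against 20%) lower in SPRET in both sets. Another 7 (15.6%, against 5.3%) passed in opposite directions (Ccnd1, Cdkn1b, E2f2, Mcm2, Mcm4, Uhrf1 and Bub1). Mcm2, for example, had 5.89, 7.15 and 6.25 TPM in SPRET and 2.33, 2.69 and 2.33 TPM in C57 in the 5-strain table (1.11 ± 0.10), and 5.44 and 6.44 TPM in SPRET and 8.28 and 9.15 TPM in C57 in the time course (-0.49 ± 0.10).

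In the hybrids both parental alleles are present in the same cells. The values are allele-weighted levels, the number of reads behind each allele is unknown, and no test was made. Parental differences came from the 5-strain libraries alone. Between SPRET and C57 at basal, 7 members passed in the opposite direction in the time course. All 48 members were described for C57 with SPRET and 22 for C57 with NOD. At basal, 19 members differed by more than 2-fold between the C57 and SPRET parents, 16 of these had the same sign between hybrid alleles, and none exceeded 2-fold there. At 24 h the numbers were 22, 13 and 0, and Pcna, just under 2-fold between parents (0.99), had 1.25 between alleles. The allele ratio lay within 2-fold of the parental one for 9 of the 19 at basal and 1 of the 22 at 24 h. These members were picked for a parental difference of more than 2-fold, so the counts do not describe all members. Counts in both hybrids were made for the members only, so whether all genes have a like share was not tested. The paper places most parental-specific reads of the C57 and SPRET hybrid within 2-fold of the parents, over genes not picked by their parental difference. Cdkn1a, the member with the largest basal gap between the C57 and SPRET parents in the 5-strain libraries, had 149 and 149.7 for the C57 allele and 124 and 128 for the SPRET allele in the basal hybrid libraries, a log2 ratio of 0.25 against 3.00 between parents. Its parental gap was less than 2-fold in the basal time course libraries. Tk1 had -0.33 between alleles and -2.60 between parents, and Mcm7 -0.01 and -1.81. The ratio was larger for Pcna, with 219 and 216 for the C57 allele and 118 and 121 for the SPRET allele (0.86 between alleles and 1.43 between parents), and likewise for E2f1 (0.72 and 1.38) and E2f8 (-0.65 and -1.66). In the hybrid with NOD, 8 members differed by more than 2-fold between parents at basal and 3 of these had the same sign between alleles, against 4 of 4 at 24 h. Mcm7 was among those of opposite sign at basal, with a mean of -1.05 between alleles (0.05 and -2.15 in the single libraries) against 1.08 between parents. At 24 h the single libraries disagreed in sign for Mcm3 (-0.16 and 0.42) and Rrm2 (-0.20 and 0.33), which are among the 4. E2f2 had 0.44 between alleles and 3.10 between parents at basal, and 1.14 and 2.45 at 24 h, and Pcna had 0.81 and 1.61 at basal. The median over members of the basal allele ratio was -0.02 with SPRET and 0.04 with NOD, and the basal hybrid libraries had the same sign for 38 of 48 and 14 of 22 members. The 24 h hybrid libraries had the same sign for fewer, 29 of 48 with SPRET and 10 of 22 with NOD.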

How the data were processed

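RNA-seq libraries of mouse bone marrow-derived macrophages were prepared from poly(A) RNA with strand marking. STAR alignments were made by the authors against strain-specific genomes and then moved onto mm10 coordinates, and exon reads were summed per gene with HOMER to give the deposited TPM values (scaled to gene length and library total). In the hybrids, the deposited allele values, headed TPM and treated here as a signal, were made by the authors from the gene value and the share of reads over strain differences that came from each allele, and the read depth behind them is unknown. The tables also hold the authors' comparison columns (fold changes and p-values), which were not used. The human table was not analysed here.

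Each table was fitted separately with limma 3.58.1 (R 4.3.3) on log2(TPM + 1), with 1 mean per group, an expression trend in the variance and Benjamini-Hochberg adjustment over all genes that reached 1 TPM in 2 or more libraries. "Passed" means an adjusted p under 0.05. All tests were two-sided. Summaries and figures used Python 3.11.15, pandas 2.3.3, numpy 2.4.6 and matplotlib 3.10.9. Depth was 4.69 to 32.9 Mtags per library, and TPM keeps no counts, so no counting interval is given. Groups hold 2 or 3 libraries, and their number limits the precision. On simulated data with 200 changed genes, the fit for C57 at 24 h found 93% of changes of 0.5 and 99.5% of changes of 1.5 on the log2 scale, and the fit for the Egr2 response difference found 34.5% and 93.5%. That for the SPRET time course at 24 h found 72% and 99%, with 6.49% and 5.71% of passing genes false. The changed genes were drawn from those with a mean log2(TPM + 1) over 3, so recovery of lower members was not measured.

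The members, the other gene lists and the markers were chosen with earlier results of these data known. Members named were fixed landmarks (Mki67, Top2a, Ccnb1, Cdk1, Mcm5, Rrm2, Ccnd1, Ccnd2, Cdkn1a and Cdkn2c), the 2 largest rises and falls past 2-fold in each comparison, and further members named after their values were seen. From the other lists, at most 2 genes with the largest such change were named. In no comparison did every pair of same-numbered libraries deviate together with a correlation over 0.1 (correlations of -0.09 to 0.33, -0.14 to 0.09 and -0.05 to 0.00 in the 5-strain, time course and Egr2 tables, with 0.33, 0.15 and 0.09 for the BALB response the highest set), so the replicate number was not used. Alternatives were other pseudocounts, filters, scalings, priors and sample sets, a replicate block, and leaving out each library. Promoter windows came from RefSeq (GRCm38.p6).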

Additional observations from a re-analysis of the deposited data

Results flagged for a closer look

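The 24 h response to IL-4 differed between strains or genotypes by the test of the difference itself, and these differences are listed with no explanation weighed. The number of members whose response differed from that of C57 was largest in SPRET, at 22 (46.8% of the members tested, against 33.4% of all genes). It was 18 in NOD (38.3% against 33.3%), 14 in PWK (29.8% against 22.4%) and 6 in BALB (12.8% against 15.8%), so the share in NOD and BALB lay near that of all genes, and these comparisons share the C57 libraries. In the time course it was 24 between SPRET and C57 (52.2% against 28.9%), and between Egr2MKO and Egr2WT it was 34 (70.8% against 12.6%).

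In the 5-strain table, the response of SPRET minus that of C57 (log2 scale) was 1.31 for E2f2 and 1.12 for Uhrf1. In the time course it was 1.68 for Uhrf1, 1.23 for Mcm6, 1.16 for E2f2, 1.15 for Ccnd3, 1.14 for Ccnd1, 1.13 for Bub1b, 1.07 for Pcna and -1.29 for Ccnb2. Ccnd1 and Pcna each rose in SPRET, and Ccnd3, E2f2 and Bub1b each fell by more than 2-fold in C57. The response of Egr2MKO minus that of Egr2WT was 1.27 for Birc5, 1.26 for Ccnb2, 1.09 for Mki67, 1.07 for Ccne2, 1.03 for Kif11, 1.01 for Ccna2 and 1.00 for Top2a. No group held enough libraries to look for a library far from the others.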

How the results depend on the processing

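The 592 passing changes of single members were recomputed 8712 times under the alternatives. Of these values, 7794 stayed on the same side of the threshold with the same sign, 915 no longer passed and 3 changed sign. Where the counts below moved, the cause was not tested.

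In basal NOD against C57, Cdkn1a became 0.13 and Kif20a 0.033 under median-ratio scaling, and Kif20a became 0.13 under quantile normalization. Median-ratio scaling gave 10 passing members in BALB, 9 in PWK and 0 in Egr2WT at 1 h, and 2-fold calls of 10 in basal NOD (from 19), 1 in the SPRET response difference, 0 between genotypes at 24 h and 2 in the Egr2 response difference (from 7). Quantile normalization gave 10 passing members in BALB, 9 in PWK, 2 in Egr2WT at 1 h and 10 in Egr2MKO at 6 h, and 2-fold calls of 9 in basal NOD, 10 in basal PWK, 1 in the SPRET response difference, 0 between genotypes at 24 h and 2 in the Egr2 response difference. With no filter on low values, 0 passed in Egr2WT at 1 h.

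With a pseudocount of 0.1 TPM, the 2-fold calls were 1 in BALB and 1 in SPRET at 24 h, 5 in basal BALB, 13 in basal PWK, 3, 2 and 5 in the NOD, PWK and SPRET response differences, 8 and 6 in the C57 and SPRET time course at 24 h, 2 between genotypes at 24 h and 11 in the Egr2 response difference. With 5 TPM they were 4 in basal NOD, 2 in basal PWK, 8 in basal SPRET, 0 in the SPRET response difference, 1 and 1 in the C57 and SPRET time course at 24 h, 8 at basal and 0 for the response difference in the time course, 0 between genotypes at 24 h and 3 in the Egr2 response difference.

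Fits on the compared groups alone, with fewer libraries to estimate the spread, passed 10 members in C57, 3 in NOD, 8 in PWK, 2 in the BALB response difference, 1 in the C57 time course at 1 h, 4 and 7 in the SPRET time course at 1 h and 6 h, 0 in Egr2WT at 1 h, 2 in Egr2WT at 6 h, 6 in Egr2MKO at 6 h and 10 for basal Egr2MKO against Egr2WT.

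Leaving out 1 library at a time gave 11 to 18 passing members in C57 at 24 h (11 without basal replicate 2), 9 to 16 in BALB (9 without basal replicate 1 or 24 h replicate 2), 5 to 11 in NOD (5 without basal replicate 1), 6 to 13 in PWK (6 without basal replicate 2 and 9 without 24 h replicate 2) and 9 to 17 in the PWK response difference (9 without C57 24 h replicate 3). In the 2-fold calls it gave 0 to 1 in SPRET (1 without basal replicate 2), 0 to 1 in the NOD and PWK response differences (1 without C57 24 h replicate 1 or 2) and 2 to 6 in the C57 time course at 24 h (2 without 24 h replicate 2). In the Egr2 table, where the lone library left in a group is assumed to vary like the other groups, it gave 0 to 0 at 1 h and 5 to 8 at 6 h in Egr2WT (5 without basal replicate 2), 1 to 2 at 1 h (from 4, without any of the libraries) and 10 to 18 at 6 h in Egr2MKO (10 without basal replicate 2), 6 to 10 for the basal genotypes (from 16, without any of them, and 6 without Egr2MKO basal replicate 2) and 5 to 12 2-fold calls in the response difference (12 without Egr2WT 24 h replicate 2).

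With the replicate number as a block, 18 members passed in C57 at 24 h (17 without the block), 15 for basal Egr2MKO against Egr2WT (16) and 32 in the Egr2 response difference (34), and no count moved by over 1.5 times. A crossed pairing in the C57 time course at 1 h, chosen after seeing the data, passed 3 members against 4. A pseudocount of 0.1 and a looser allele filter moved no hybrid median by more than the spread between libraries. TPM keeps no read counts, so low members such as Ccnd2 could not be given a counting error.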
